A study of Mus musculus with 12 samples.

Results

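Open chromatin was examined at 9 mouse genes that control where lymphocytes go: S1pr1, S1pr4, Klf2, Cd69, Gpr183, Gpr15, Itga4, Itgb7 and Selplg. The measurements came from ATAC-seq, in which a transposase inserts into open chromatin and the fragments it releases are counted by position, on 12 libraries in 4 groups of 3. A peak was given to 1 of these genes when its centre lay within the gene's protein-coding span on mm10, and otherwise when that span was the nearest one within 50 kb. By this rule the 9 genes held 155 of 222105 peaks. Of these, 146 passed the filter on low counts and were tested, and 9 were too weak to test.

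The 4 groups were WT Dex, WT control, cKO Dex and cKO control, all on the C57/B6 background. WT cells had an intact glucocorticoid receptor (GR, encoded by Nr3c1), and cKO cells came from mice with a conditional knockout of it. The labels do not say which promoter drives the recombinase or whether replicates came from separate animals, so a p-value speaks only to how far these samples varied, which may be technical. Naive CD4+ T cells taken from spleen and draining lymph nodes were cultured into the state that the study names Th17Hom. Dex groups then received dexamethasone, a synthetic GR agonist, for 2 days, control groups did not, and 6000 sorted cells entered each library.

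T cells leave lymphoid tissue by following sphingosine 1-phosphate, a lipid that is abundant in blood and lymph, through the receptor S1PR1. The transcription factor KLF2 activates S1pr1, whereas the activation marker CD69 binds S1PR1 and removes it from the cell surface. S1PR4 binds the same lipid. GPR183 follows oxysterols within lymphoid organs, GPR15 directs T cells to the large intestine, the integrin of Itga4 and Itgb7 binds the gut vessel ligand MAdCAM-1, and Selplg encodes PSGL-1, the main ligand of P-selectin. Dexamethasone is known to alter lymphocyte traffic in mice.

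Start regions were available for 6 of the 9 genes, as RefSeq sequences of assembly GRCm38.p6 that run from 250 bases before to 50 bases after the gene's start, and the 5 that held a match to a searched motif are shown. The Itga4, Itgb7, Klf2 and S1pr4 windows lay wholly within tested peaks, and 146 of the 300 bases of the Gpr15 window did. Capitals mark matches to 4 motifs searched on both strands: the palindromic GR element, its single arm TGTTCT, the KLF box CACCC and the AP-1 element TGANTCA. A match on the other strand appears as the reverse complement. A palindromic match would also hold 2 arms.
Itga4, chr2:79255176-79255475, + strand: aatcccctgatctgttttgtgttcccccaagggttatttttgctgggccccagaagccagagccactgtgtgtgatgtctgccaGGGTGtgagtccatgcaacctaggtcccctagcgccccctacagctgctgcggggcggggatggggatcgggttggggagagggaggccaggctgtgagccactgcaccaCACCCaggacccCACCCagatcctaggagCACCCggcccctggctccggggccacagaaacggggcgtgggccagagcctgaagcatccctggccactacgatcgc
Itgb7, chr15:102231886-102232185, - strand: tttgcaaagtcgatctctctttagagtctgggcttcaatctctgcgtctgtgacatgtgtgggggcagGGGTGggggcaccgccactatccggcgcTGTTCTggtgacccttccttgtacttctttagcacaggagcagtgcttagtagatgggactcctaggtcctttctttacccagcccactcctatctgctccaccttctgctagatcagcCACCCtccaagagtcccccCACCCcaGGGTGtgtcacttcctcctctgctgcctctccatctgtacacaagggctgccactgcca
Klf2, chr8:72318812-72319111, + strand: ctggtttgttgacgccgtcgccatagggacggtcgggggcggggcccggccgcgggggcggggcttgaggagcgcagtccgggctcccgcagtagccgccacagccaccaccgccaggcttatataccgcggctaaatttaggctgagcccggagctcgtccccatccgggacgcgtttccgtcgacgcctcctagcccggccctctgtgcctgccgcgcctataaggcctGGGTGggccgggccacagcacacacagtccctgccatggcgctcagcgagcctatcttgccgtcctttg
Gpr15, chr16:58718823-58719122, - strand: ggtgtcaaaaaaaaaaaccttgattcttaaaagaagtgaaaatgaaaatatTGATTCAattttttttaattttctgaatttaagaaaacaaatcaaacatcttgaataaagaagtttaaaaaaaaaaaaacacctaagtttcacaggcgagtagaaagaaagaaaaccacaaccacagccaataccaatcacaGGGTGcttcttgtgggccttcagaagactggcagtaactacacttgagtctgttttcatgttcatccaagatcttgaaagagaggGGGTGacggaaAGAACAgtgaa
S1pr4, chr10:81500088-81500387, - strand: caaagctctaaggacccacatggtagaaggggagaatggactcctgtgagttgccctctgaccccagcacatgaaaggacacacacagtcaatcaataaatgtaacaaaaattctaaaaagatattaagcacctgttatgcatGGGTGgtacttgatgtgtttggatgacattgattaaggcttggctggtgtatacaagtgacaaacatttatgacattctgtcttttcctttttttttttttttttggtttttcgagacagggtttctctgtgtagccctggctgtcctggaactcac
None of the 6 windows matched the palindromic element, which was present in 0.00913% of 32851 windows of the same length. So rare a match would seldom appear in 6 windows. S1pr1, Cd69 and Selplg had no window, and peaks away from the gene starts were not searched. The motif counts therefore do not bear on the distal sites described below. The Itgb7 and Gpr15 windows each held 1 single arm, which 19.0% of all windows held. The KLF box occurred 4 times in the Itga4 window, 4 times in Itgb7, 2 times in Gpr15 and 1 time in Klf2, and 57.5% of all windows held at least 1. Gpr15 also had the only AP-1 match of the 6, in the part of its window outside the peak, against 7.81% of all windows. The S1pr4 window held 1 KLF box, and the Gpr183 window held none of the motifs.

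Total counts per library lay between 12988437 and 25081591. Beyond the noise of counting, edgeR estimated a median coefficient of variation of 24.8% between replicates. All 6 T cell marker genes and all 6 Th17 marker genes were accessible, with strongest peaks of 32.7 to 173 and 31.4 to 69.4 CPM (counts scaled to the size of the library). Markers of B cells reached 1.39 to 8.71 CPM at their strongest peak, those of CD8 T and NK cells 2.82 to 18.8 CPM and those of erythroid cells up to 21.5 CPM. The range was 0.880 to 47.0 CPM for myeloid and 8.05 to 49.5 CPM for stromal markers, within the range of the T cell markers at its upper end. The strongest Nr3c1 peak stood at 56.7 to 69.4 CPM in cKO Dex and 51.9 to 60.2 CPM in cKO control, against 64.8 to 81.4 CPM in WT Dex and 59.7 to 73.9 CPM in WT control, and none of its 24 tested peaks was called, so accessibility there does not check the genotype labels. The strongest 10% of peaks held 62.6% ± 1.52 of counts in WT Dex, 61.2% ± 0.772 in WT control, 60.3% ± 1.88 in cKO Dex and 58.9% ± 1.27 in cKO control (SD, n = 3 each). The part of this shift in the results below was not tested. The third cKO Dex library was the least like its replicates, its counts giving a chi-square of 3.14 and 3.72 (per degree of freedom) against the other 2 libraries, where the other 10 pairs of replicates gave 2.04 to 2.55.

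The 9 genes differed widely in how much open chromatin surrounded them. S1pr1, with no other protein-coding span close by, held 39 peaks, of which 2 had their centre within its span. Cd69 held 32 peaks, 5 of them within, and Klf2 held 19, 1 of them within. Itga4 held 22 peaks with 14 inside the gene, Gpr15 16 with 1 inside, and Selplg 13 with 5 inside. Gpr183, Itgb7 and S1pr4 held 8, 4 and 2 peaks. All 8 peaks of Gpr183 also lay within the span of Ubac2, the gene in which it sits, and cannot be told apart from peaks of that gene. In 4 of the 6 genes with a known start window (Itga4, Itgb7, S1pr4 and Klf2) a peak of more than 20 CPM covered the start, and in 3 of these it was the strongest peak of the gene.

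The first question was what Dex did to these sites in cells with an intact receptor. In WT cells 2 of 146 tested peaks rose, 1 at S1pr1 and 1 at Cd69, and none fell. Over all 202587 tested peaks, 1080 were called in WT cells (0.533%), 0.42% higher and 0.113% lower, at an adjusted p under 0.05 from edgeR's quasi-likelihood test. Both peaks lay far from the gene they were given to. Because bulk libraries were measured, a site that opened in more cells and one that opened further in each cell cannot be told apart.

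The S1pr1 peak lay at chr3:115673054-115674156, 36828 bases outside the gene span. The next nearest gene, Dph5, was 214511 bases away. Its accessibility was 15.0, 14.2 and 11.8 CPM in the WT Dex libraries, against 8.25, 7.58 and 7.42 CPM in the WT control libraries. In cKO Dex libraries it was 9.05, 8.47 and 8.55 CPM, against 7.80, 8.60 and 9.17 CPM in cKO control libraries. The WT Dex libraries thus lay above all other 9, and the cKO control range overlapped those of cKO Dex and WT control. The log2 fold change with Dex was 0.82 ± 0.14 in WT cells (SE, adjusted p = 2.83e-04) and 0.029 ± 0.15 in cKO cells (adjusted p = 0.989). The call in WT cells was kept when any single library was left out, with log2 values of 0.75 to 0.92 over all alternatives.

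The Cd69 peak lay at chr6:129230080-129230861, 36854 bases outside the Cd69 span and 43935 bases from the next nearest gene, Clec2d. WT Dex libraries had 8.39, 7.31 and 7.26 CPM, against 4.92, 3.86 and 3.65 CPM in WT control libraries. The corresponding values were 7.31, 6.63 and 5.61 CPM in cKO Dex and 4.59, 6.996 and 5.06 CPM in cKO control. The groups were apart in WT cells and overlapped in cKO cells. Dex changed this peak by a log2 value of 0.91 ± 0.18 in WT cells (edgeR adjusted p = 2.82e-03) and 0.23 ± 0.18 in cKO cells (adjusted p = 0.902). Without the third WT control library the WT value was 0.82 and missed the threshold (adjusted p = 0.0709). A site of about 60 CPM lay 30209 bases outside the span, closer to Cd69 than the called one. It stood at 63.5, 60.4 and 61.1 CPM in WT Dex and 60.6, 65.3 and 61.9 CPM in WT control, with a log2 difference of -0.021 ± 0.10 (adjusted p = 0.985).

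**Figure D1:**
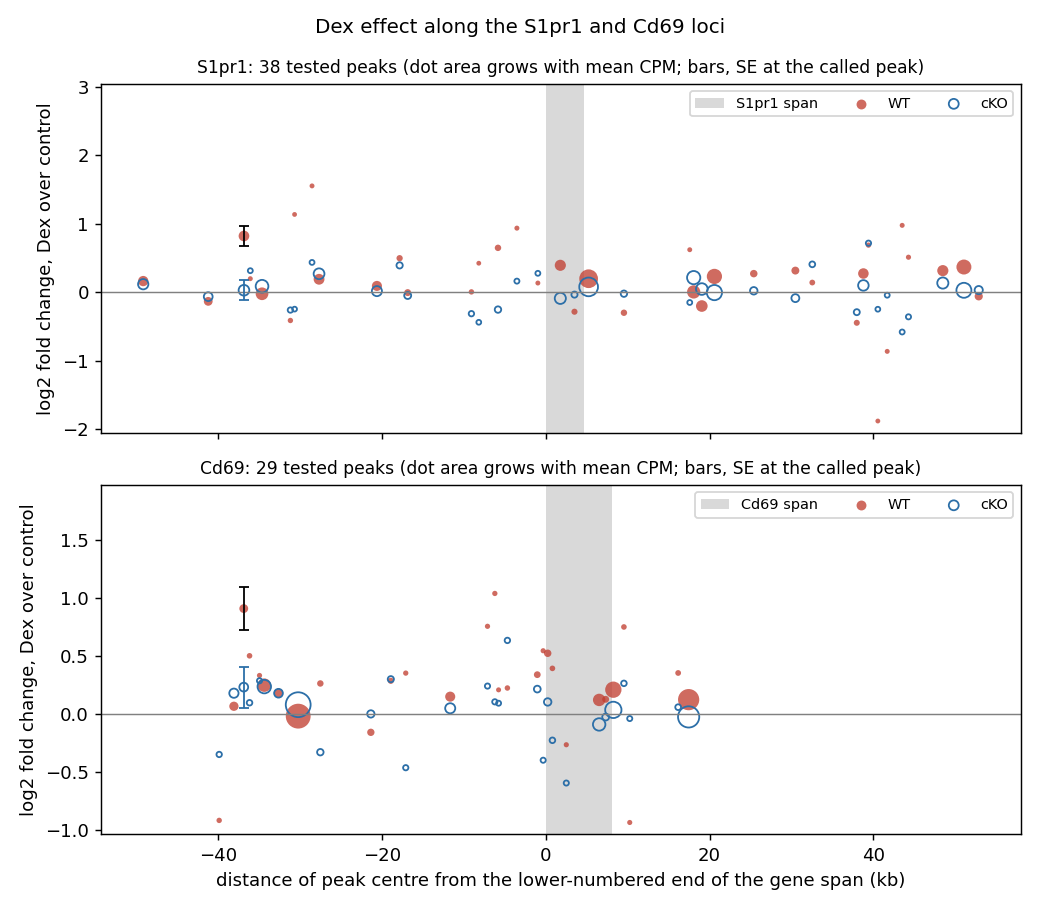
Log2 fold change with Dex (y axis) at each tested peak of S1pr1 (38 peaks) and Cd69 (29 peaks), by distance of the peak centre from the lower-numbered end of the gene span in kb (x axis). Filled red dots are WT cells, open blue circles cKO cells, dot area grows with mean CPM, the grey band is the gene span and bars show the SE at the called peak. The called peaks sit at 0.82 and 0.91 in WT cells, and the strongest peaks near the 0 line.

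Itga4, the alpha chain of the gut-homing integrin, had the next smallest adjusted p among the 9 genes. This peak lay at chr2:79227439-79228168, 27623 bases outside the span. It had 5.88, 6.93 and 6.31 CPM in WT Dex libraries, against 4.01, 4.79 and 3.36 CPM in WT control. In cKO cells it had 4.85, 4.88 and 4.62 CPM with Dex and 6.55, 6.01 and 5.26 CPM without. WT Dex was therefore above WT control, and cKO Dex below cKO control, with no overlap in either genotype. The log2 difference was 0.66 ± 0.18 in WT cells (adjusted p = 0.0867) and -0.31 ± 0.18 in cKO cells (adjusted p = 0.863), neither of which was called. The WT value passed the threshold with loess offsets (0.65, adjusted p = 0.0467), which rescale each library along the range of peak levels.

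**Figure D2:**
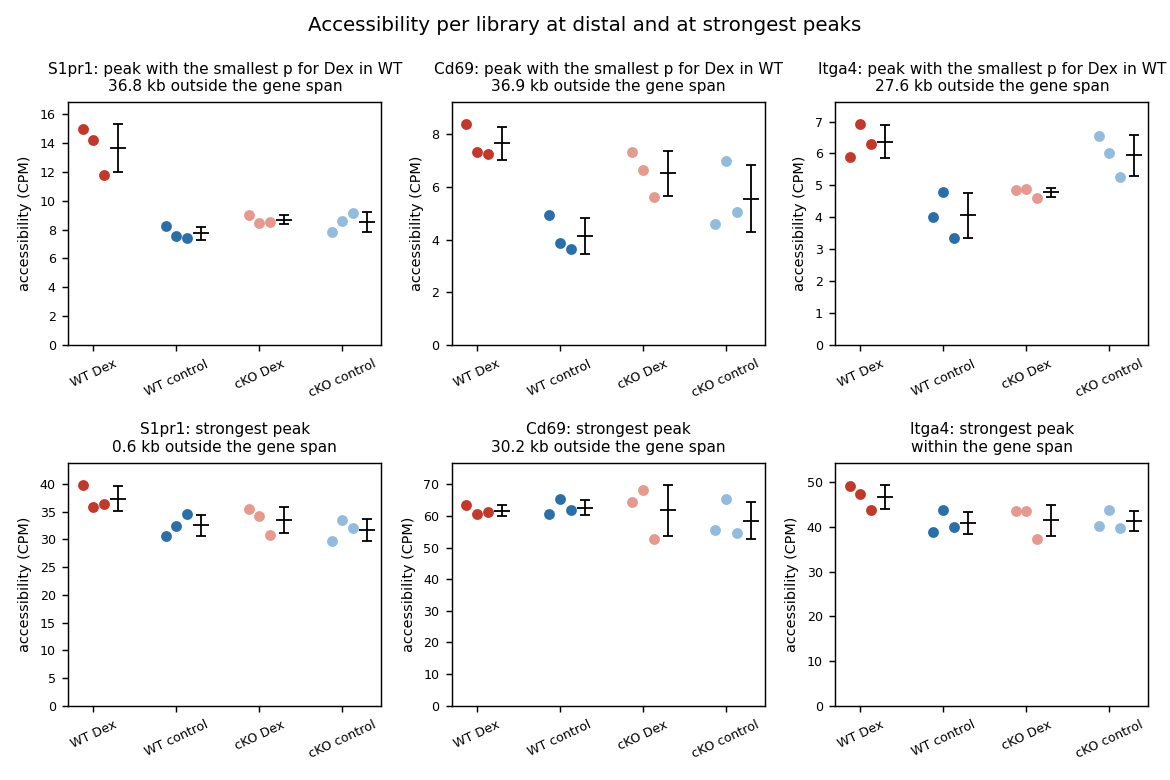
Accessibility in CPM (y axis) in each library of the 4 groups (x axis) at the peak with the smallest p for Dex in WT cells (top) and at the strongest peak (bottom) of S1pr1, Cd69 and Itga4. Dots are libraries and bars the mean ± SD (n = 3). The 3 WT Dex libraries lie above the 3 WT control libraries in all top panels, and the groups overlap for Cd69 in the bottom row.

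The strongest peaks of the 9 genes did not pass the test. Their log2 differences in WT cells ran from -0.021 at Cd69 to 0.21 at Gpr15, with 8 of 9 positive and the smallest adjusted p at 0.588. The strongest S1pr1 peak (chr3:115714524-115716815), which overlapped the higher-numbered end of the gene, had 39.9, 35.9 and 36.4 CPM in WT Dex and 30.6, 32.5 and 34.5 CPM in WT control. These groups did not overlap, yet the difference of 0.20 ± 0.10 was not called (adjusted p = 0.640). For Gpr15 the strongest peak lay 14653 bases outside the span, with 56.3, 53.3 and 50.2 CPM in WT Dex libraries and 48.6, 46.2 and 43.9 CPM in WT control (0.21 ± 0.10, adjusted p = 0.588). The peak over the Gpr15 start was weak, at 0.897 ± 0.231 CPM in WT Dex and 0.713 ± 0.254 CPM in WT control (SD, n = 3).

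None of the 6 peaks over an annotated start was called in WT cells, with log2 differences from 0.016 to 0.32. Klf2 had 45.4, 46.2 and 42.4 CPM at its start in WT Dex and 38.2, 43.5 and 39.1 CPM in WT control, with 1 WT Dex value inside the control range. The difference was 0.15 ± 0.10 (adjusted p = 0.767). The start peak of Itga4, whose start window holds 4 KLF boxes, averaged 46.8 ± 2.71 CPM in WT Dex and 40.9 ± 2.55 CPM in WT control. That of Itgb7, the beta chain, averaged 24.0 ± 3.00 CPM in WT Dex and 23.6 ± 0.840 CPM in WT control, a difference of 0.025 ± 0.12.

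The S1pr4 start lay in a peak that averaged 32.5 ± 1.76 CPM in WT Dex and 30.1 ± 1.02 CPM in WT control (0.11 ± 0.11, adjusted p = 0.858). At Gpr183 the strongest peak had 61.1, 51.7 and 48.9 CPM in WT Dex, around the 50.7, 53.2 and 51.1 CPM of WT control. The Gpr183 peak with the smallest p differed by 0.20 ± 0.15 (adjusted p = 0.796). At Selplg the peak with the smallest p lay within the gene (chr5:113824121-113825008), with 13.02, 12.96 and 13.3 CPM in WT Dex, and 10.1, 10.3 and 11.1 CPM in WT control. These groups were apart, and the difference of 0.32 ± 0.13 was not called (adjusted p = 0.462).

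Most differences at the 9 genes in WT cells were positive and small. Of 146 tested peaks 99 were positive, 67.8%, with a median log2 value of 0.15, against 49.8% and -0.0016 over all tested peaks. An unadjusted p under 0.05 was reached by 18 of them (12.3%), 16 positive and 2 negative, against 8.31% of all tested peaks. WT Dex lay wholly above WT control at 23 of the 146 peaks and wholly below it at 4, against 6.93% of all tested peaks in each direction. Strong peaks were shifted upwards at large. Among the 35 peaks of the 9 genes with at least 10 CPM the median was 0.15 and 77.1% were positive, against 0.076 and 70.9% for all peaks of that level. Below 10 CPM the median was 0.16 over 111 peaks of the 9 genes and -0.030 over all. An unadjusted p under 0.05 was reached by 20% of the 35 strong peaks, against 14.4% of all at that level. Below it the shares were 9.91% and 7.47%. WT Dex lay wholly above WT control at 11 of the 35, and at 3617 of all 24829 strong peaks. Among weaker peaks this held for 12 of the 111 and for 10429 of all 177758. The median stayed positive under each scaling of the libraries, from 0.10 with total counts to 0.16 with median-ratio size factors.

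**Figure D3:**
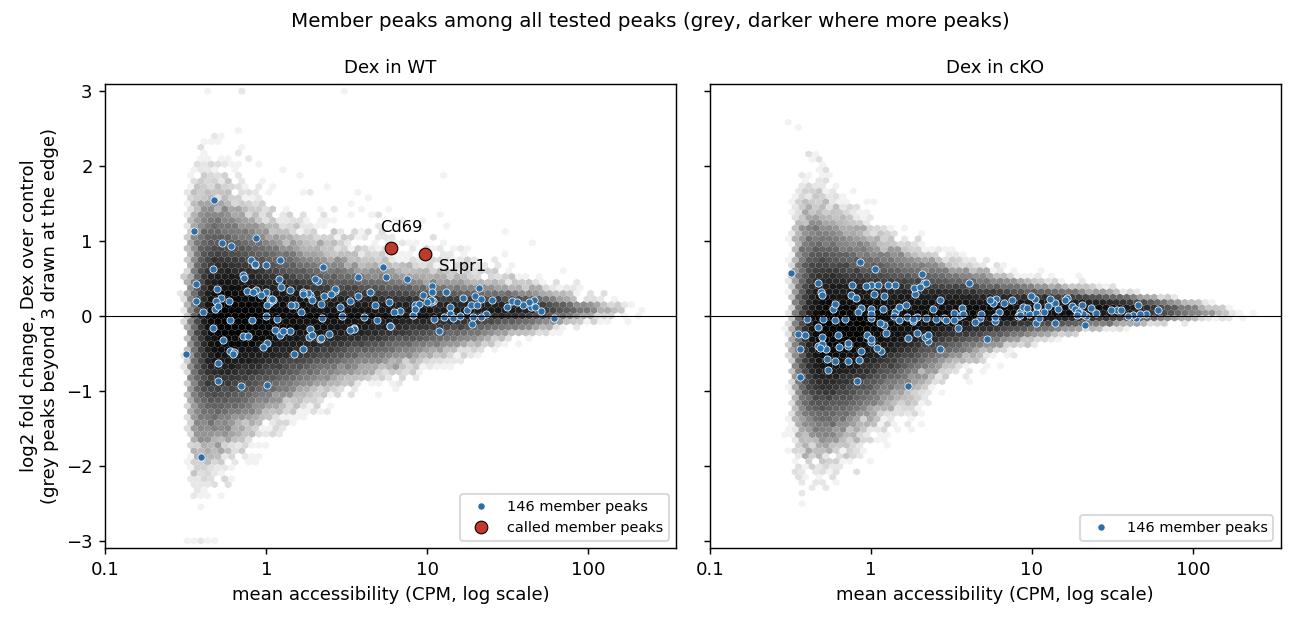
Log2 fold change with Dex (y axis) against mean accessibility in CPM (x axis, log scale) for all tested peaks (grey hexagons, darker where more peaks) and for the 146 tested peaks of the 9 genes (blue), in WT cells (left) and cKO cells (right). The called S1pr1 and Cd69 peaks are red. Above the 0 line lie 99 of 146 blue points in WT cells and 79 of 146 in cKO cells.

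By gene, Cd69 had 24 of 29 tested peaks positive with Dex in WT cells (median 0.25), S1pr1 27 of 38 (0.20), Itga4 13 of 21 (0.18) and Klf2 13 of 19 (0.14). Selplg had 3 of 13 (-0.11). Counts were also summed over all peaks of a gene and tested across 17358 genes, where 459 (2.64%) were called in WT cells, 1.66% of genes higher. S1pr1 alone of the 9 was called. Its sum was 240.3, 239.8 and 238.04 CPM in WT Dex libraries, against 209.5, 212.2 and 225.0 CPM in WT control. In cKO cells the sums were 223.8, 237.96 and 222.7 CPM with Dex and 219.5, 236.8 and 227.7 CPM without. The WT Dex libraries were the highest of all 12, though by only a small margin over the second cKO Dex library. The difference in WT cells was 0.15 ± 0.040 (adjusted p = 0.0297), and the call was lost without either of 2 WT control libraries (1 and 2), any WT Dex library or the first cKO Dex library, with adjusted p from 0.0521 to 0.150.

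The other sums differed less. Klf2 summed to 157 ± 1.09 CPM in WT Dex and 146 ± 4.42 CPM in WT control (0.10 ± 0.045, adjusted p = 0.298), and Cd69 to 227 ± 2.35 CPM in WT Dex and 212 ± 3.21 CPM in WT control (0.097 ± 0.038, adjusted p = 0.212). Gpr15 differed by 0.14 ± 0.056 (adjusted p = 0.229) and Itga4 by 0.14 ± 0.050 (adjusted p = 0.166). Selplg summed to 132 ± 1.59 CPM in WT Dex and 133 ± 4.91 CPM in WT control.

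**Figure D4:**
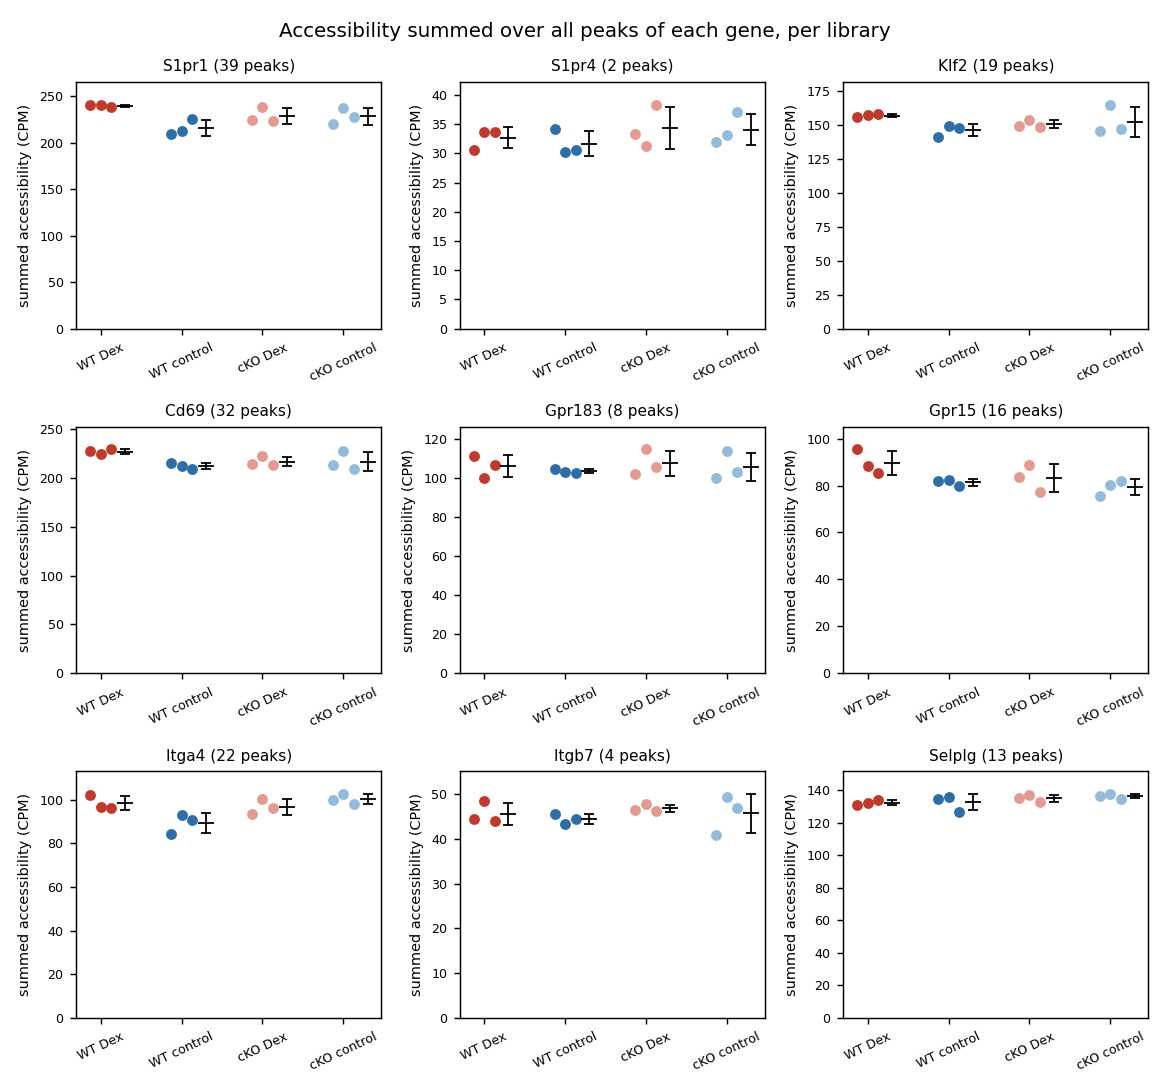
Accessibility summed over all peaks of each of the 9 genes in CPM (y axis), in each library of the 4 groups (x axis). Dots are libraries and bars the mean ± SD (n = 3). For S1pr1, WT Dex sits at 238 to 240.3 CPM and WT control at 209.5 to 225.0 CPM, while the Selplg groups overlap.

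The second question was whether Dex acted on these sites in cells that carried the receptor knockout. In cKO cells 0 of the 146 peaks passed edgeR's test, with 2 at an unadjusted p under 0.05 (5.84% of all tested peaks had one) and 0 called by DESeq2, which gave 90 of them an adjusted p. The background was 6 of 202587 peaks (0.00296%), all higher. Without the third cKO Dex library it was 335 peaks, 10.1% of them higher, and still 0 of the 146, and without any cKO control library or the second cKO Dex library it was 1 to 3. The 2 were a Klf2 peak at a log2 value of 0.56 and an Itgb7 peak at -0.94, named here after their values were seen. Of the 146 peaks 79 were positive, with a median of 0.026, and cKO Dex lay wholly above cKO control at 4 and wholly below at 3, against 5.28% and 5.5% of all tested peaks. With total counts and with loess offsets the median turned negative, at -0.029 and -0.012. In the main fit 49.4% of all tested peaks were positive, with a median of -0.0044. Among the 35 peaks of at least 10 CPM 80% were positive, with a median of 0.076. All peaks of that level gave 82.1% and 0.090. The strongest peaks were positive at 9 of 9 genes, at 0.0084 to 0.14. Below 10 CPM 45.9% of the 111 were positive, against 44.9% of all. None of the 9 summed values was called in cKO cells, where 1 gene of 17358 was (0.00576%), and none had an unadjusted p under 0.05, against 8.13% of all genes. The sums of S1pr1 averaged 228 ± 8.50 CPM in cKO Dex and 228 ± 8.69 CPM in cKO control.

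A direct test of the difference between the Dex effects, cKO minus WT, called 0 of the 146 peaks in edgeR and 0 of the 108 that DESeq2 gave an adjusted p, and 7 had an unadjusted p under 0.05, all negative. Over all tested peaks 56 were called (0.0276%), or 192 without the third cKO Dex library, and 5.65% had an unadjusted p under 0.05. The S1pr1 peak had the smallest adjusted p of the 9 genes, with a difference of -0.79 ± 0.20 (adjusted p = 0.279), which passed the threshold with loess offsets (-0.83, adjusted p = 0.0303). For Itga4 the difference was -0.97 ± 0.26 (adjusted p = 0.314), and for Cd69 it was -0.68 ± 0.25 (adjusted p = 0.748). The Dex effects at S1pr1 and Cd69 were thus called in WT cells and not in cKO cells, but a difference between the genotypes was not shown by this test. On summed counts all 9 differences were negative, from -0.19 to -0.0079, where 49.9% of all genes were positive (median -4.8e-04). None was called (0.219% of all genes were), with 2 at an unadjusted p under 0.05, against 7.51% of all genes. The values of Itgb7 (-0.0079 ± 0.096), Gpr183 (-0.010 ± 0.075), Selplg (-0.015 ± 0.060), S1pr4 and Gpr15 were smaller than their SE. Those of S1pr1, Klf2, Cd69 and Itga4 were larger than their SE.

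Genotype was compared next within each treatment. Among Dex-treated cells, 1 of the 146 peaks was lower in cKO than in WT, the same distal S1pr1 site, and none was higher. Of all tested peaks 346 were called (0.171%), with 0.131% lower in cKO. This comparison shares the WT Dex libraries with the test of Dex in WT cells. The S1pr1 site averaged 8.69 ± 0.312 CPM in cKO Dex and 13.7 ± 1.68 CPM in WT Dex (SD, n = 3), a log2 difference of -0.65 ± 0.14 (edgeR adjusted p = 0.0171). The call was lost without WT Dex library 1 (-0.58, adjusted p = 0.228), WT Dex library 2 (-0.62, 0.137), cKO Dex library 1 (-0.68, 0.0721) or cKO Dex library 2 (-0.63, 0.0890), the second value being the adjusted p. A Selplg peak that missed the threshold was called without WT Dex library 3, at -1.14 (adjusted p = 0.0489).

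At an unadjusted p under 0.05 stood 19 of the 146 peaks, 16 of them lower in cKO Dex, against 8.35% of all tested peaks. They included the Klf2 start peak, with 37.4, 38.5 and 33.0 CPM in cKO Dex against 45.4, 46.2 and 42.4 CPM in WT Dex (-0.30 ± 0.10, adjusted p = 0.320). No cKO Dex library reached the lowest WT Dex library there. The strongest Gpr15 peak had 44.5, 48.0 and 39.1 CPM in cKO Dex against 56.3, 53.3 and 50.2 CPM in WT Dex. These groups did not overlap either (-0.28 ± 0.10, adjusted p = 0.366). Such gaps were common, with cKO Dex wholly below WT Dex at 20 of the 146 peaks and at 12550 of all 202587. It lay wholly above at 9 and at 13121. Among peaks of at least 10 CPM, cKO Dex lay wholly below at 9 of the 35 and at 3893 of all 24829. Strong peaks were shifted downwards at large. Among the 35 peaks of at least 10 CPM, 17.1% had an unadjusted p under 0.05, 20% were positive and the median was -0.109. All peaks of that level gave 20.4%, 24.0% and -0.112. Below 10 CPM an unadjusted p under 0.05 was reached by 11.7% of the 111 peaks, against 6.66% of all. Of the 146 peaks 55 were positive, with a median of -0.072. This median turned to 0.011 with total counts, a scaling that moved the median of all peaks to 0.074. None of the 9 summed values was called (2.3% of all genes were) or had an unadjusted p under 0.05, against 15.3% of all genes.

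In control cells, with no added Dex, 0 of the 146 peaks differed between cKO and WT in edgeR, and 13 had an unadjusted p under 0.05, 7 higher and 6 lower. DESeq2, whose own filter left only 20 of them with an adjusted p, called 0. Of all tested peaks 21 were called (0.0104%), or 48 without the third cKO Dex library, and 7.68% had an unadjusted p under 0.05. The median over the 146 peaks was 0.044. The distal S1pr1 site averaged 8.52 ± 0.685 CPM in cKO control and 7.75 ± 0.444 CPM in WT control (0.14 ± 0.15, adjusted p = 0.865). That of Cd69 averaged 5.55 ± 1.28 CPM in cKO control and 4.14 ± 0.682 CPM in WT control (0.45 ± 0.19, adjusted p = 0.569). For Itga4 the distal site averaged 5.94 ± 0.651 CPM in cKO control and 4.06 ± 0.718 CPM in WT control. The groups did not overlap (0.56 ± 0.18, adjusted p = 0.446). Wholly above WT control lay cKO control at 7 of the 146 peaks, and at 14016 of all 202587. The sum over Itga4 was the nearest to a call, at 100.3 ± 2.38 CPM in cKO control and 89.3 ± 4.54 CPM in WT control (0.16 ± 0.050, adjusted p = 0.146). No sum was called, against 0.213% of all genes.

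Other genes of egress, homing and adhesion were read from a list of 44, of which 43 had tested peaks, 784 in all. In WT cells 3 of the 43 had a higher peak with Dex and 1 a lower one, 4 of 784 peaks or 0.510%, against 0.533% of all tested peaks. Itgb2, the beta chain of LFA-1, had a peak within the gene at 32.0 ± 1.70 CPM in WT Dex and 20.1 ± 1.91 CPM in WT control (0.67 ± 0.11, adjusted p = 1.66e-04). Klf13, a relative of Klf2, had one at 25.2 ± 0.540 CPM in WT Dex and 15.7 ± 1.07 CPM in WT control (0.68 ± 0.12, adjusted p = 1.91e-04). Itgav, an integrin alpha chain, rose by 0.49 ± 0.11 at a peak 26446 bases outside the gene (adjusted p = 0.0206). S1pr2, a sphingosine 1-phosphate receptor that restrains migration, fell at a peak within the gene, with 9.42 ± 0.731 CPM in WT Dex and 13.9 ± 0.709 CPM in WT control (-0.56 ± 0.14, adjusted p = 0.0380). The Itgav call was lost without WT control library 1 or 3 or either of WT Dex libraries 1 and 2 (adjusted p 0.111 to 0.234). The S1pr2 call was lost without any WT control library, WT Dex library 1 or 2 or cKO control library 3 (adjusted p 0.0551 to 0.239), and with median-ratio size factors (adjusted p = 0.0523) or no filter on low counts (adjusted p = 0.0521).

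In cKO cells none of these 784 peaks was called with Dex in edgeR, 44 had an unadjusted p under 0.05 (5.61%, against 5.84% of all tested peaks). For the difference between the Dex effects none was called and 53 had one (6.76%, against 5.65%). Between genotypes, Rhoh, a GTPase needed for T cell receptor signalling, was lower in cKO at 10 of its 29 tested peaks among control cells (log2 -1.27 to -1.04), where 0.00938% of all tested peaks were lower. It was lower at 8 among Dex-treated cells (-1.42 to -0.82), against 0.131% of all. Its peaks summed to 109 ± 4.24 CPM in cKO Dex and 189 ± 5.51 CPM in WT Dex, and to 104 ± 3.69 CPM in cKO control and 199.7 ± 7.56 CPM in WT control. The number of lower Rhoh peaks was 7 to 10 in control cells and 8 to 9 in Dex-treated cells. These ranges cover 18 and 19 alternative fits, which include leaving out each library. The 10 Rhoh peaks in control cells lay in 1 stretch, chr5:65860305-65914721, from within the gene to 17752 bases outside it. The 8 in Dex-treated cells lay in chr5:65850649-65901468. The cause of the lower counts over this stretch was not tested. The Klf13 peak was lower in Dex-treated cKO cells, at 17.4 ± 0.688 CPM against 25.2 ± 0.540 CPM in WT Dex (-0.54 ± 0.11, adjusted p = 0.0136). That call was lost without WT Dex library 1 or 2 or cKO Dex library 1 (adjusted p 0.0774 to 0.141). On summed counts edgeR called Dock2 lower with Dex in WT cells (-0.18 ± 0.038, adjusted p = 4.39e-03). Itgb2 was called higher (0.20 ± 0.045, adjusted p = 6.87e-03), where 2.64% of all genes were called. Among Dex-treated cells the sums of Dock2 (0.18 ± 0.038, adjusted p = 5.69e-03) and Itgae (0.23 ± 0.051, adjusted p = 0.0104) were higher in cKO, opposite to Rhoh. There 2.3% of all genes were called.

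The peaks whose levels over the 12 libraries were most like those of the called sites were sought among 38486 peaks that averaged at least 5 CPM and belonged to other genes, keeping the best peak of each gene. For the S1pr1 site these were peaks of Zfp281 (Pearson's r = 0.969), Ift80 (0.968) and Slc25a17 (0.967). For the Cd69 site they were peaks of Gimap4 (0.958), Zswim6 (0.928) and Thada (0.920). The Ift80 peak differed with Dex by a log2 value of 1.45 ± 0.12 in WT cells and 0.32 ± 0.12 in cKO cells. That of Slc25a17 differed by 0.86 ± 0.14 in WT cells and 0.0099 ± 0.14 in cKO cells. In WT cells the Zfp281 peak differed by 0.43 ± 0.095 and that of Thada by 0.65 ± 0.12. The peaks of Gimap4 (0.46 ± 0.13, edgeR adjusted p = 0.0764) and Zswim6 (0.36 ± 0.14, adjusted p = 0.411) were not called. That of Gimap4 passed with total counts, DESeq2, loess offsets, only the libraries compared or without cKO Dex library 3 (adjusted p 0.0187 to 0.0389). The Zfp281 call (edgeR adjusted p = 9.49e-03) was lost without WT control library 2 or 3 or WT Dex library 1 or 2 (adjusted p 0.0690 to 0.108). All the peaks named in this paragraph were picked for likeness to a called site, so a rise with Dex in WT cells follows from the choice. The libraries of a group share their treatment, and the coefficients describe these 12 libraries alone.

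The 50 kb limit was crossed by few peaks. S1pr1 had 5 tested peaks between 40 and 50 kb from its span, at log2 values of -0.13 to 0.37 with Dex in WT cells, and 6 between 50 and 75 kb, at -0.41 to 0.39. Itga4 had 1 tested peak between 50 and 75 kb, at 0.51. None of these was called. With a limit of 10 kb no called peak remained at any of the 9 genes, since the sites at S1pr1 and Cd69 lay farther away.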

How the data were processed

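The authors deposited 1 table of raw whole-number counts, with 222105 joint mm10 peaks as rows and the 12 libraries as columns. Bowtie2 2.3.5, deepTools 3.5.6, featureCounts 2.1.1, Genrich 0.6.1, Picard 2.18.27, SAMtools 1.3 and Trimmomatic 0.39 were used, per the submitters' processing notes. What each did, any shift for the transposase cut, and whether samples were pooled to call peaks were not given in the sources used here. Joint peaks can favour sites that are open in the larger or more open libraries, and counts of PCR copies are not independent molecules.

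Peaks were assigned to 21900 protein-coding spans of GRCm38.p6, the build of mm10, and assignment by position does not show regulation. Counts were filtered by group with filterByExpr, which kept 202587 peaks and left out 19518, and scaled by TMM. The settings were a minimum count of 10, not required of every library, and 15 in total. edgeR 4.0.16 in R 4.3.3 fitted robust quasi-likelihood models to all 12 libraries with 1 coefficient per group (8 residual degrees of freedom). Tests were two-sided, Benjamini-Hochberg adjusted over all tested peaks or genes, and called under 0.05. SE is the log2 fold change divided by the square root of F. The scripts were tested on simulated data. Replicate pairs differed beyond sampling noise (chi-square per degree of freedom 2.04 to 3.72).

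For each gene the text names its strongest peak, the peak with the smallest p for Dex in WT cells, called peaks and the peak over an annotated start. Alternatives were DESeq2 1.42.0, other scalings, no filter, a replicate block, a 10 kb limit, fits to only the libraries compared, and leaving out each library. Loess offsets were added after seeing the data. The genes and lists were chosen with earlier results of these data known.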

Additional observations from a re-analysis of the deposited data

How the results depend on the processing

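No called value changed direction. Called peaks at the 9 genes stayed at 2 for Dex in WT cells and 1 lower for cKO against WT in Dex-treated cells with median-ratio size factors, total counts, no filter, DESeq2 (which gave 20 to 108 of the 146 peaks an adjusted p) and only the libraries compared, and none in the other comparisons. The replicate block and loess offsets each gave 3, adding the distal Itga4 peak, for Dex in WT cells, and loess offsets 1 for the difference between the Dex effects. Within 10 kb of a span both counts were 0. Leaving out a library gave 1 to 2 for Dex in WT cells, 0 to 2 for genotype with Dex, and 0 to 1 genes on summed counts. Over all peaks, total counts called 1746 for Dex in WT cells, 111 for the difference, 36 for genotype in control cells and 866 for genotype with Dex. DESeq2 called 10 for Dex in cKO cells, 371 for genotype in control cells and 656 for genotype with Dex. In control cells it gave 14057 peaks an adjusted p, which left out 18 of edgeR's 21 calls, 9 of them at Rhoh. Loess offsets called 2137, 190, 54 and 1006 in the order given for total counts, and only the libraries compared called 3 for Dex in cKO cells and 70 for genotype in control cells. Higher peaks made up 78.8% of calls for Dex in WT cells, against 59.05% with total counts and 58.96% with loess offsets, and 23.4% for genotype with Dex, against 56.1% and 53.9%. For genotype in control cells they made up 9.52%, against 22.2% and 50%, and 0.270% in DESeq2. Leaving out each library gave 537 to 1462 for Dex in WT cells, 1 to 335 for Dex in cKO cells, 30 to 192 for the difference, 13 to 48 for genotype in control cells and 162 to 535 for genotype with Dex, where the first 4 of these upper ends came without the third cKO Dex library. The cause of these shifts was not tested.

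Replicate numbers do not pair the libraries by the labels. With the replicate block, the distal Itga4 peak was called for Dex in WT cells (0.66, adjusted p = 0.0490), and calls over all peaks were 1736, 99, 162 and 1012 for Dex in WT cells, the difference, genotype in control cells and genotype with Dex. Same-numbered libraries deviated together with a correlation above 0.1 in 3 of 18 pairs (-0.188 to 0.258), and 8 of 12 libraries correlated best with one of their own number.

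At 3 libraries per group and about 10 CPM, the SE of a log2 difference near 0.15 limits what could be seen at these sites.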
